A study of Homo sapiens with 6 samples.

Results

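The integrin receptors and the core of proteins that tie them to the actin cytoskeleton were examined by RNA-seq in LX-2 cells, a human line derived from hepatic stellate cells. The set held 35 genes of the 60748 in the deposited table, chosen by symbol as 12 integrin α subunits, 8 integrin β subunits and 15 adhesion adaptors, and all 35 were found. The measured values played no part in that rule, although the set was proposed with earlier results of these data known. The study compared 3 libraries of LX-2 cells carrying an empty lentiviral vector (LX-2Vector) with 3 libraries of LX-2 cells carrying the same vector with fibroblast activation protein α (LX-2FAP), to learn what this cell surface protease does in stellate cells. Both lines carried the GV367 backbone, in which a ubiquitin promoter drives the insert beside EGFP and puromycin resistance, and stable clones were selected in puromycin. All 6 libraries came from cells cultured for 24 h in medium with serum, with no further treatment. With 1 line per group, the insert and the line that carries it cannot be told apart.

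Integrins are pairs of an α and a β subunit that span the plasma membrane, bind the extracellular matrix or other cells outside and recruit adaptors to the β tail inside. Talins and kindlins switch the receptors on, vinculin, filamin, tensins and zyxin join them to actin, and focal adhesion kinase, paxillin and p130Cas pass signals on. In the liver, stellate cells lie against the matrix they make, and their αv integrins are known for releasing active TGF-β from its latent form.

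Of the 35 genes, 31 could be tested and 5 were called different between the lines, beside 5.29% of all tested genes, and the RefSeq promoter table (GRCh38.p14) held 3 of these 5, ITGA2, ITGA6 and TNS1, as it did 26 of the 35. Their upstream sequences are shown because these were the called genes with an entry there. ITGA2 and ITGA6 rose and TNS1 fell, and whether sequence bears on the direction was not tested. Each run is the 250 bases just before the RefSeq start, read 5′ to 3′ on the gene's strand, and capitals mark a match to any of 4 motifs searched on both strands, GGGCGG (the GC box), TGANTCA (AP-1), GCGNGGGCG (EGR) and GGAATG (TEAD). A GC box can overlap an EGR match.
ITGA2, chr5:52989102-52989351, plus strand: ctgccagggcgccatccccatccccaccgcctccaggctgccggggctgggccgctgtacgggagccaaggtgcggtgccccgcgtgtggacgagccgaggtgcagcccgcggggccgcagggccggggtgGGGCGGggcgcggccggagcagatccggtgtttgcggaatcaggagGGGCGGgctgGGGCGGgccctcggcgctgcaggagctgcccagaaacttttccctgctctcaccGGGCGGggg
ITGA6, chr2:172427086-172427335, plus strand: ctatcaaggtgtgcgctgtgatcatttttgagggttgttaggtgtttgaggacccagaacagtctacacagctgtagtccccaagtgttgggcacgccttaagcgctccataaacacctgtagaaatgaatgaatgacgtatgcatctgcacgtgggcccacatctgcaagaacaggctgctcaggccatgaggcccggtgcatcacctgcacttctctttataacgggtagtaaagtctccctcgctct
TNS1, chr2:218010276-218010525, minus strand: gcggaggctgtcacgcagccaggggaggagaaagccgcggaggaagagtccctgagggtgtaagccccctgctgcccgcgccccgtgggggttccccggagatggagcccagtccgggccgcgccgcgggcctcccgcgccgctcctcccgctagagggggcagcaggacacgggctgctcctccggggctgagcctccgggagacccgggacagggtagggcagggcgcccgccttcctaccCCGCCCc
The ITGA2 window was 76.4% G and C and held 4 GC boxes. The TNS1 window, at 76.0%, held 1, on the opposite strand. The ITGA6 window was 50.8% G and C and held none of the 4 motifs. Of 27305 windows of this length, 42.3% held a GC box, 6.60% an AP-1 match, 8.25% an EGR match and 11.9% a TEAD match, and the median G and C content was 58.0%. A match is a description of the letters and not a binding site.

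The libraries held 17355700 to 26352060 counts. FAP itself had 42 to 55 counts in the LX-2Vector libraries and 14805 to 15160 in the LX-2FAP libraries, so the labels matched the targeted gene. Of 13 stellate cell or fibroblast markers, 7 exceeded a mean of 1 FPKM (fragments per kilobase of gene, scaled to library depth) in LX-2Vector, LRAT had 0 counts in all 6 libraries, DES had 4 counts in all, and COL1A2 stood at 0.109 FPKM beside 34.3 for COL1A1. Of the 11 markers of this list that were tested, edgeR called COL1A1, COL3A1 and PDGFRB lower and VIM higher in LX-2FAP. Over all tested genes, 2.73% were called lower and 2.57% higher. The median log2 fold change of the 11 was -0.36, with 8 of 11 below 0, beside a median of -0.01 for all tested genes. The part of these changes in the results below was not tested. A count of 0 allows for up to 3 counts per library, for counting error only.

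In the LX-2Vector libraries the laminin and fibronectin receptors and the collagen receptor subunit ITGA2 made up most of the α subunit transcripts. ITGA3, which pairs with β1 to bind laminins, was the most abundant at 56.2 ± 2.05 FPKM (SD, n = 3), followed by ITGA5, the classical fibronectin receptor subunit, at 46.8 ± 0.537, ITGA2 at 41.9 ± 3.20 and ITGA6, another laminin receptor subunit, at 26.5 ± 1.44. These 4 genes made up 29.6%, 24.7%, 22.0% and 14.0% of the summed α subunit FPKM. ITGAV, the αv subunit, stood at 9.70 ± 0.878 FPKM and ITGA7, a further laminin receptor subunit best known from muscle, at 5.88 ± 0.395. The ranges of these 6 neighbours in the order did not overlap between libraries of LX-2Vector.

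The other collagen receptor subunits were much lower than ITGA2, with ITGA1 at 1.65 ± 0.122 FPKM, ITGA10 at 0.418 ± 0.0227 and ITGA11 at 0.344 ± 0.0848. ITGA4, best known from leukocytes, stood at 0.498 ± 0.0338 FPKM. ITGA9 had 6 to 13 counts per library, and ITGA8 had 1 count in LX-2FAP replicate 1 and 0 in the other 5 libraries. ITGA10 and ITGA11 overlapped in their LX-2Vector libraries and so had no order.

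Among the β subunits, ITGB1, the partner of most α subunits measured here, stood far above the rest at 65.3 ± 1.83 FPKM in LX-2Vector, or 83.3% ± 0.536 of the summed β subunit FPKM. The αv partners ITGB5 and ITGB3 followed at 7.75 ± 0.314 and 3.20 ± 0.0569 FPKM. ITGB4, which pairs with α6 to hold epithelial cells to laminin, stood at 1.28 ± 0.0962 FPKM. ITGB8, an αv partner known for TGF-β activation, and ITGB2, the β subunit of leukocyte integrins, stood at 0.392 ± 0.0567 and 0.360 ± 0.0213 FPKM and overlapped. ITGB7 had 3 to 9 counts per library and ITGB6 had 1 to 6.

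FLNA, the actin crosslinker filamin A, was the most abundant of the 35 genes at 468.3 ± 24.0 FPKM in LX-2Vector. VCL (vinculin) and TLN1 (talin 1) followed at 49.3 ± 1.21 and 47.6 ± 2.09 FPKM, with overlapping libraries, ahead of ZYX (zyxin) at 34.96 ± 1.96 and PXN (paxillin) at 29.6 ± 0.814. FERMT2, the kindlin of most adherent cells, and LIMS1, the PINCH partner of ILK, overlapped at 19.9 ± 0.103 and 19.0 ± 1.38 FPKM. BCAR1 (p130Cas) stood at 8.53 ± 0.831, PTK2 (focal adhesion kinase) at 7.83 ± 0.152, PARVA (α-parvin) at 7.72 ± 0.159 and TNS1 (tensin 1) at 6.95 ± 0.706 FPKM, each overlapping the next. TNS3 (tensin 3) at 5.24 ± 0.295, TLN2 (talin 2) at 4.56 ± 0.326 and FERMT1 (kindlin 1, best known from epithelia) at 4.51 ± 0.154 FPKM came next. ILK (integrin-linked kinase) was lowest at 1.16 ± 0.238 FPKM.

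**Figure D1:**
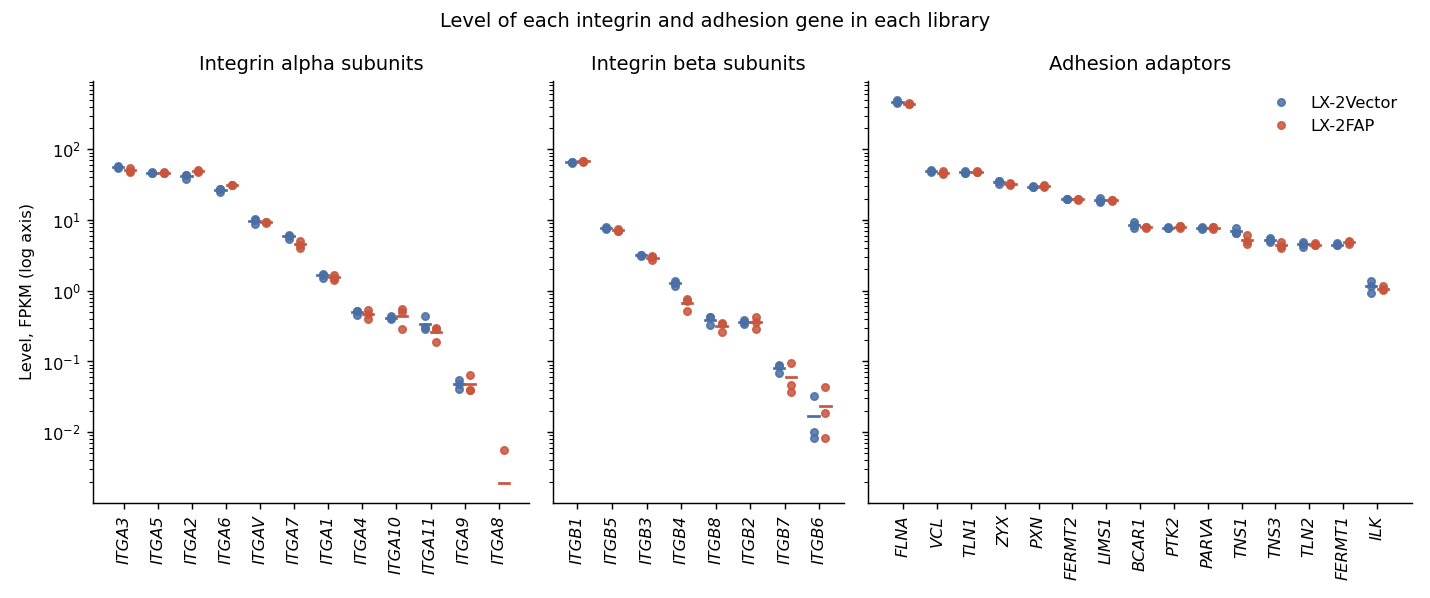
Level of each of the 35 genes in each library, in FPKM on a log axis, with 3 points and a bar at the mean for LX-2Vector and LX-2FAP, ordered by the LX-2Vector mean within α subunits, β subunits and adaptors. FLNA is highest at 468.3 FPKM in LX-2Vector, and libraries with a value of 0, as for ITGA8 in 5 libraries, are not drawn.

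Some levels rest on sequence that members share with other genes, and whether the counting used strand was not stated. In GENCODE release 29, 68.1% of the exon bases of ILK lie on the opposite strand of exons of TAF10, which itself had 90 to 168 counts per library, so the low value of ILK is uncertain. ITGB3 shares 51.6% of its exon bases with the annotated gene AC068234.1 (0 counts), ITGB7 42.1% with ZNF740, ITGB6 20.6% with AC092153.1, PXN 12.3% with PXN-AS1 and VCL 11.1% with AP3M1. For LIMS1, 16.7% of its stretches of 75 bases also occur in LIMS3, which had 18 counts in all, and the pseudogene ITGB1P1 held counts equal to 5.04% to 5.55% of those of ITGB1. Among the genes called different below, no single other gene shared more than 2.66% of exon bases, for ITGA6.

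The comparison of LX-2FAP with LX-2Vector asked which of these genes differ with FAP. A gene passed the expression filter in 31 of 35 cases (10 α subunits, 6 β subunits and 15 adaptors), and ITGA8, ITGA9, ITGB6 and ITGB7 were too low to test. The quasi-likelihood test of edgeR on counts, with Benjamini-Hochberg adjusted p under 0.05 over 18275 genes, called 5 of the 31, beside 5.29% of all tested genes. ITGA2 and ITGA6 rose, beside 2.57% of all tested genes called higher, and ITGB4, ITGA7 and TNS1 fell, beside 2.73% called lower. The 5 calls were 3 α subunits, 1 β subunit and 1 adaptor. In 6 genes, these 5 and ITGB1, the normalized CPM (counts scaled to library depth after TMM correction) of the groups did not overlap, which held for 26.4% of all tested genes. The median log2 fold change of the 31 was -0.05 and that of all tested genes -0.01. Limma-trend on the deposited FPKM called 0 of the 31, with adjusted p of 0.112 to 0.135 for the 5 genes. At an unadjusted p under 0.05 stood 7 of the 31, beside 20.04% and 19.91% of all tested genes (pseudocounts of 1 and 0.1). Limma-trend called 2 genes in the whole table. The spread tested is that between these libraries, which may be technical, since separate cultures were not stated.

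ITGB4 changed most. Its normalized CPM was 9.20, 7.86 and 8.74 in the LX-2Vector libraries and 5.21, 4.84 and 3.53 in the LX-2FAP libraries, from 74 to 243 counts. Every LX-2FAP library lay below every LX-2Vector library. The mean fell from 8.60 ± 0.678 to 4.53 ± 0.883 CPM (SD, n = 3), which gave a log2 ratio of -0.93 ± 0.13 (SE, 95% interval -1.21 to -0.65, edgeR adjusted p = 0.0035). In RNA from whole cultures, fewer cells expressing a gene and less RNA per cell cannot be told apart. ITGB4 (ENSG00000132470) lies on chromosome 17 at 75721328-75757818, plus strand, GRCh38. It stayed called in all 6 fits that left out 1 library, with log2 fold changes of -1.06 to -0.78.

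ITGA6 encodes the α6 subunit, with which β4 pairs, and it moved the other way. Its normalized CPM was 166, 179 and 183 in LX-2Vector and 208, 209 and 211 in LX-2FAP. The 3 LX-2FAP libraries lay close together and above every LX-2Vector library. The mean rose from 175.7 ± 8.84 to 209.2 ± 1.28 CPM, with a log2 fold change of 0.25 ± 0.043 (SE, 95% interval 0.16 to 0.34, edgeR adjusted p = 0.0077). Without LX-2FAP replicate 3 the log2 fold change was 0.25 with an edgeR adjusted p of 0.0748, and the other 5 fits that left out a library kept the call. ITGA6 (ENSG00000091409) lies on chromosome 2 at 172427354-172506282, plus strand.

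The FPKM of ITGA6 was 18.2, 23.0 and 21.2 times that of ITGB4 in the LX-2Vector libraries and 40.4, 43.8 and 60.3 times in the LX-2FAP libraries. The ratio of ITGA6 to its other partner ITGB1 was 0.393, 0.410 and 0.414 in LX-2Vector and 0.451, 0.462 and 0.448 in LX-2FAP. Both ratios were thus higher in every LX-2FAP library, and they are descriptions of genes already called or measured above, with no test of their own. Their size, though not their change between libraries, depends on the gene lengths used.

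ITGA2, the α2 subunit of the collagen receptor α2β1, had normalized CPM of 301, 339 and 344 in LX-2Vector and 399, 379 and 410.0 in LX-2FAP. The groups did not overlap, and LX-2Vector replicate 1 was the lowest library. The mean rose from 327.9 ± 23.7 to 395.9 ± 15.7 CPM, with a log2 fold change of 0.27 ± 0.050 (SE, 95% interval 0.17 to 0.38, edgeR adjusted p = 0.0096). Without LX-2FAP replicate 3 it was 0.25 with an edgeR adjusted p of 0.0892. ITGA2 (ENSG00000164171) lies on chromosome 5 at 52989326-53094779, plus strand. The window shown above ran to 52989351, so its end, with the last GC box, lies inside the annotated gene. The neighbouring collagen receptor subunit ITGA1 had a log2 fold change of -0.06 (95% interval -0.21 to 0.09) and was not called.

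ITGA7, the α7 subunit of a laminin receptor, had normalized CPM of 37.9, 34.4 and 39.4 in LX-2Vector and 33.0, 26.0 and 28.5 in LX-2FAP. The groups did not overlap, and LX-2FAP replicate 1 lay nearest to the LX-2Vector libraries. The mean fell from 37.2 ± 2.56 to 29.2 ± 3.52 CPM, with a log2 fold change of -0.35 ± 0.079 (SE, 95% interval -0.52 to -0.18, edgeR adjusted p = 0.0221). The call was lost in 4 of 6 fits that left out a library, with edgeR adjusted p of 0.0730 and 0.0698 when LX-2Vector replicate 1 or 3 was dropped, and of 0.107 and 0.139 when LX-2FAP replicate 2 or 3 was. ITGA7 (ENSG00000135424) lies on chromosome 12 at 55684568-55716043, minus strand.

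TNS1 was the adaptor called. It encodes tensin 1, which binds integrin β tails and actin in long, mature adhesions. Its normalized CPM was 108, 104 and 125 in LX-2Vector and 100.3, 75.7 and 82.8 in LX-2FAP. LX-2FAP replicate 1 again lay nearest to the LX-2Vector libraries, and the groups did not overlap. The mean fell from 112.3 ± 11.3 to 86.3 ± 12.7 CPM, with a log2 fold change of -0.38 ± 0.084 (SE, 95% interval -0.55 to -0.20, edgeR adjusted p = 0.0206). Dropping LX-2Vector replicate 3 gave an edgeR adjusted p of 0.0673, dropping LX-2FAP replicate 2 or 3 gave 0.0957 and 0.133, and DESeq2 on all libraries gave an adjusted p of 0.0894. TNS1 (ENSG00000079308) lies on chromosome 2 at 217799588-218033982, minus strand, so the RefSeq start used above lies inside the annotated gene.

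**Figure D2:**
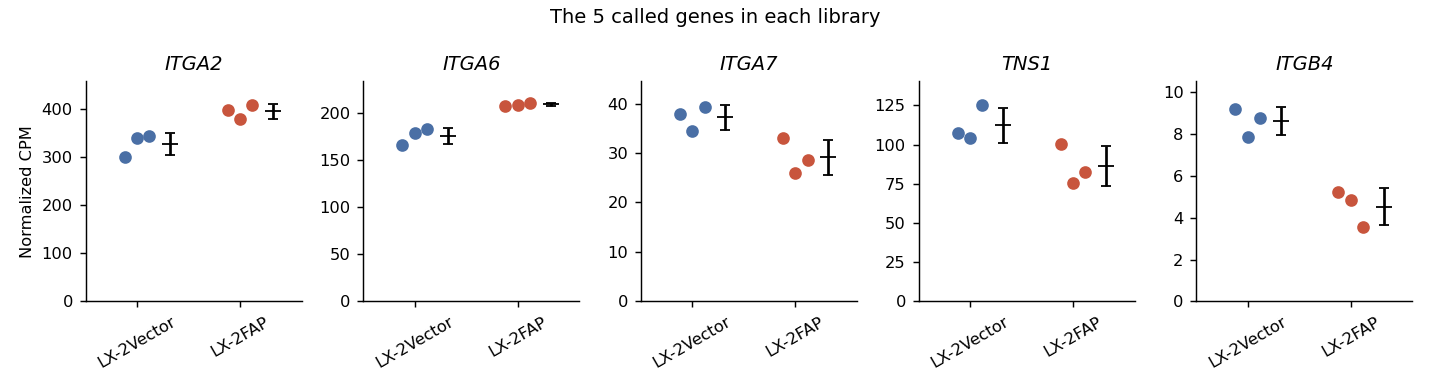
Normalized CPM of the 5 called genes in each library (axes from 0), with 3 points per group and a bar with whiskers for the mean ± SD. ITGA2 and ITGA6 are higher in every LX-2FAP library, ITGA7, TNS1 and ITGB4 lower, and ITGB4 has the largest relative change at 8.60 against 4.53 CPM.

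Next to the calls stood 3 genes with an unadjusted p under 0.05 that did not pass the adjusted threshold, making 8 of 31 at that level, beside 22.2% of all tested genes. ITGB1 had normalized CPM of 919, 951 and 962 in LX-2Vector and 1006, 988 and 1024 in LX-2FAP. The groups did not overlap, and the log2 fold change was 0.09 (95% interval 0.02 to 0.17, edgeR adjusted p = 0.143). ITGA3 had normalized CPM of 572, 529 and 538 in LX-2Vector and 539, 469 and 494 in LX-2FAP. Here the groups overlapped through LX-2FAP replicate 1, and the log2 fold change was -0.13 (95% interval -0.23 to -0.02, edgeR adjusted p = 0.140). TNS3, another tensin, had normalized CPM of 61.6, 57.4 and 64.4 in LX-2Vector and 58.5, 48.4 and 52.0 in LX-2FAP, again overlapping through LX-2FAP replicate 1. Its log2 fold change was -0.21 (95% interval -0.34 to -0.07, edgeR adjusted p = 0.0779). Without LX-2FAP replicate 1, ITGA3 and TNS3 passed the threshold, with edgeR adjusted p of 0.0198 and 0.0093, whereas without LX-2FAP replicate 2 their log2 fold changes were -0.08 and -0.15 (adjusted p of 0.466 and 0.304). With a trend on G and C content removed, they were -0.02 and -0.14 (adjusted p of 0.790 and 0.221).

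For most of the remaining genes the data set narrow bounds. Of 26 genes not called, 18 had a 95% interval that lay within a 1.2-fold change in either direction. These were ITGA1, ITGA3, ITGA5 and ITGAV among the α subunits, ITGB1, ITGB3 and ITGB5 among the β subunits, and 11 of 14 uncalled adaptors (PTK2, PXN, TLN1, TLN2, VCL, ZYX, PARVA, LIMS1, FERMT2, BCAR1 and FLNA). The fibronectin receptor subunit ITGA5 had a log2 fold change of 0.03 (95% interval -0.05 to 0.10). For ITGAV it was -0.03 (95% interval -0.15 to 0.09). For TLN1, which activates integrins, it was 0.04 (95% interval -0.05 to 0.13). For PTK2 it was 0.06 (95% interval -0.04 to 0.15) and for FLNA -0.06 (95% interval -0.14 to 0.02).

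The other 8 uncalled genes had wider bounds. For ITGA11 the log2 fold change was -0.36 (95% interval -0.77 to 0.06), for ITGB8 -0.30 (95% interval -0.61 to 0.01) and for ITGA10 0.10 (95% interval -0.33 to 0.53). Single libraries moved these values, to -0.14 for ITGA11 when LX-2Vector replicate 3 was dropped, to -0.19 when LX-2FAP replicate 2 was, and to -0.16 for ITGB8 when LX-2FAP replicate 1 was. ITGA4 had an interval of -0.32 to 0.23, ITGB2 of -0.37 to 0.38 and ILK of -0.39 to 0.27. FERMT1, at 0.13, had an interval of -0.02 to 0.28, and TNS3 was given above. The intervals of ITGA11, ITGB8, ITGB2 and ILK included both 0 and the -0.35 seen in ITGA7, so a change of that size is not excluded for them.

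**Figure D3:**
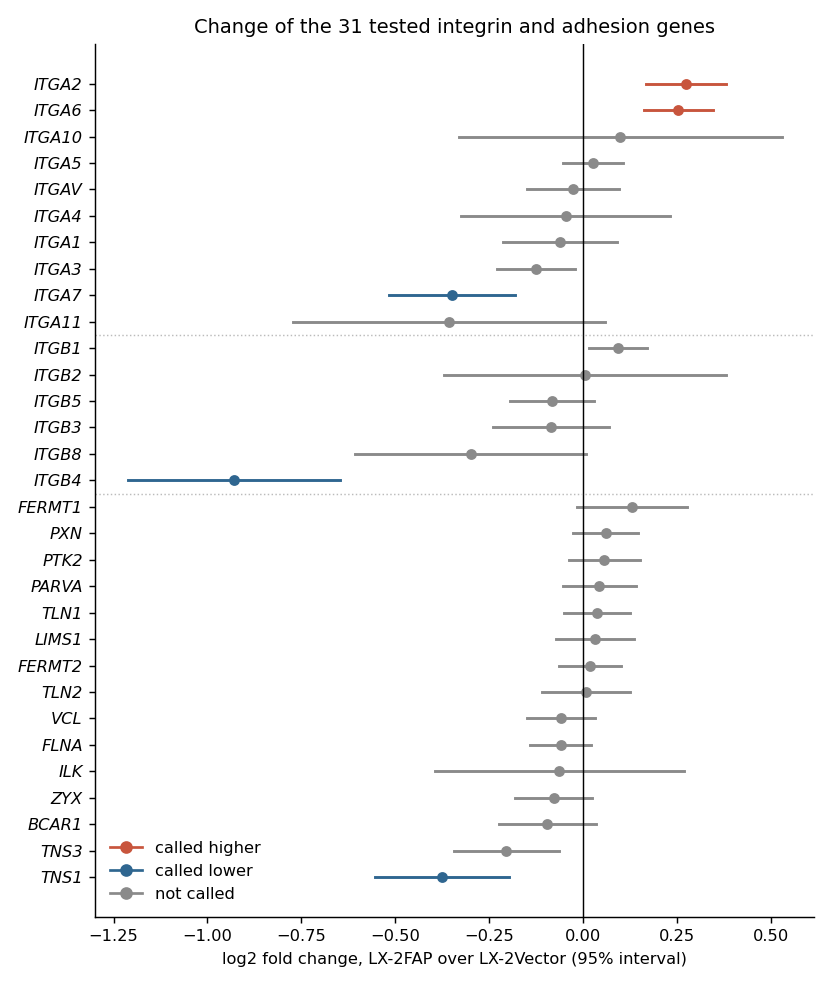
Log2 fold change of LX-2FAP over LX-2Vector for the 31 tested genes, with points for the edgeR estimate and bars for the 95% interval, grouped as α subunits, β subunits and adaptors. ITGB4 lies farthest from 0 at -0.93, the adaptors other than TNS1 and TNS3 lie between -0.10 and 0.13, and the widest intervals belong to genes with few counts.

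The summed level of the receptor transcripts moved little, while the shares of some subunits moved. The summed α subunit FPKM was 189.9 ± 4.01 in LX-2Vector and 194.3 ± 6.36 in LX-2FAP, and the summed β subunit FPKM 78.4 ± 1.72 and 79.8 ± 1.58. The size of these sums, and of the shares of FPKM, depends on the gene lengths used, including that of ITGB1. In LX-2FAP, ITGA3 made up 26.0% of the α sum, ITGA2 25.5%, ITGA5 24.1% and ITGA6 15.9%. In LX-2Vector these shares were 29.6%, 22.0%, 24.7% and 14.0%. In LX-2FAP, ITGA3, ITGA5 and ITGA2 thus stood at 50.5 ± 3.68, 46.7 ± 0.854 and 49.5 ± 2.00 FPKM, with overlapping libraries, whereas they were separate in LX-2Vector. There ITGB1 made up 85.5% ± 0.114 of the β sum and ITGB4 0.831% ± 0.172, against 83.3% ± 0.536 and 1.64% ± 0.150 in LX-2Vector. A share of normalized CPM, which takes no account of length, put ITGA3 at 35.2% and ITGB1 at 91.5% in LX-2Vector.

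Outside the 35 genes, the table held 6 further integrin α subunits, of leukocytes and platelets, and 5 were tested. ITGA2B, the platelet αIIb subunit, fell by 0.75 on the log2 scale, from 1.07 ± 0.0592 to 0.613 ± 0.175 FPKM (edgeR adjusted p = 0.0177), on 44 to 165 counts. ITGAX, the αX subunit of myeloid cells, fell by 0.47, from 1.81 ± 0.0719 to 1.27 ± 0.200 FPKM (edgeR adjusted p = 0.0211). Of all tested genes, 2.73% were called lower. In neither gene did the groups overlap, which held for 26.4% of all tested genes. Both calls were lost when LX-2Vector replicate 1 was dropped (adjusted p of 0.0649 for ITGA2B and 0.0666 for ITGAX), LX-2FAP replicate 2 (0.0677 and 0.0953) or LX-2FAP replicate 3 (0.0966 and 0.0954), and that of ITGAX also without LX-2Vector replicate 3 (0.0585) or with the G and C trend described below removed (0.0558). ITGAE, ITGAL and ITGAM were not called, and ITGAD was too low to test. No other subunit of this list exceeded ITGAE, at 3.53 ± 0.138 FPKM in LX-2Vector.

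A list of 79 other adhesion components gave 75 tested genes, of which 5 rose and 3 fell (beside 2.57% and 2.73% of all tested genes), with a median log2 fold change of -0.00. Those that rose were RAP1B, a small GTPase that activates integrins through talin (0.22, edgeR adjusted p = 0.0078), LPXN, a paxillin relative (0.22, adjusted p = 0.0212), RASA1, a Ras GTPase-activating protein (0.15, adjusted p = 0.0444), and the myosin light chains MYL12B (0.15, adjusted p = 0.0323) and MYL12A (0.14, adjusted p = 0.0452). Those that fell were TNS2, another tensin (-0.34, edgeR adjusted p = 0.0252), EVL, an actin regulator of the Ena/VASP family (-0.28, adjusted p = 0.0418), and KANK2, which binds talin at adhesion rims (-0.17, adjusted p = 0.0426). With the G and C trend removed, the calls of RAP1B, LPXN and MYL12B remained, and those of TNS2 (-0.23, adjusted p = 0.0898), EVL (-0.20, 0.133), KANK2 (-0.09, 0.202), RASA1 and MYL12A were lost. Of the 4 tensin genes, TNS1 and TNS2 were called as reported and neither with that trend removed, TNS3 was not called, and TNS4 had a log2 fold change of 0.10 (95% interval -0.58 to 0.78) on 65 counts in all. Of these 8 calls, 1 and 0 remained when LX-2FAP replicate 2 or 3 was dropped, beside 0.688% and 0.138% of all tested genes called. When LX-2Vector replicate 1, 2 or 3 was dropped, 3, 3 and 1 remained, beside 2.09%, 3.54% and 2.12%.

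Of 47 integrin ligands, 42 were tested, 17 fell and 2 rose (beside 2.73% and 2.57% of all tested genes), with a median log2 fold change of -0.19. The largest falls were in the fibrillar collagen genes COL3A1 (-0.69, edgeR adjusted p = 0.0077) and COL5A1 (-0.52, adjusted p = 0.0293), in VTN, which encodes vitronectin, the classical αv ligand (-0.67, adjusted p = 0.0331), in ICAM1, a ligand of β2 integrins (-0.55, adjusted p = 0.0122), and in TNXB (-0.44, adjusted p = 0.0325). COL3A1 fell from 6.22 ± 0.790 to 3.74 ± 0.864 FPKM, with no overlap of the groups. CCN1, a matricellular ligand of αv integrins, rose by 0.24 (edgeR adjusted p = 0.0456) although its groups overlapped. The call of CCN1 held in 1 of 6 fits that left out a library. It was lost with library size alone (edgeR adjusted p = 0.0618) and with a replicate block (0.0539). With the G and C trend removed 13 ligands were called, all among the 19, beside 2.30% of all tested genes. In that fit COL5A1 (-0.43, adjusted p = 0.101), VTN (-0.60, 0.0674) and TNXB (-0.31, 0.135) were not called. DESeq2 called 14 ligands, beside 5.64% of all tested genes, and did not call COL5A1 (adjusted p = 0.162). The number of ligands called was 4 and 1 when LX-2FAP replicate 2 or 3 was dropped, beside 0.688% and 0.138% of all tested genes. It was 11 and 12 when LX-2Vector replicate 1 or 3 was, beside 2.09% and 2.12%.

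**Figure D4:**
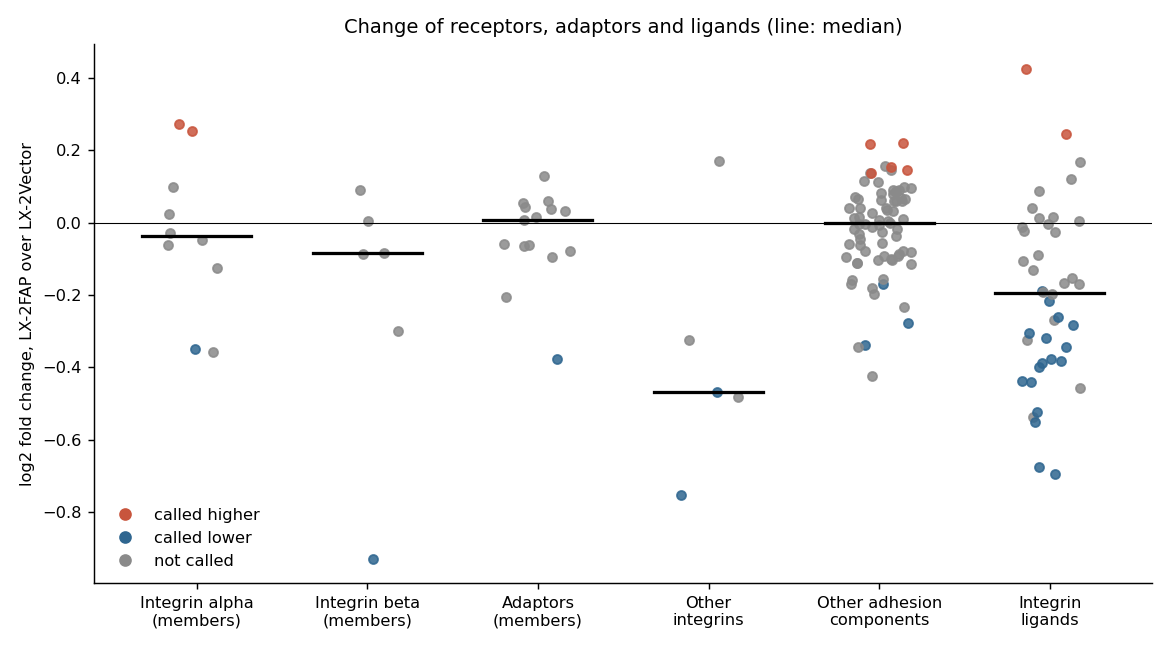
Log2 fold change of each tested gene among the member α subunits, β subunits and adaptors and among the other integrins, other adhesion components and integrin ligands, with a line at each median. The ligands have a median of -0.19 with 17 called lower, while the medians of the adaptors and of the other adhesion components lie at 0.01 and -0.00.

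The calls moved with base composition. The 3 members that fell had a G and C content of 57.2% to 63.7% in their longest annotated transcript, and the 2 that rose 40.2% and 42.9%, against a median of 47.7% for all tested genes. The same held for the calls across all genes, with medians of 57.7% for those called lower and 39.8% for those called higher. With a trend on G and C content removed from each library, an alternative chosen after seeing the data, edgeR gave adjusted p of 0.0085 for ITGB4 (-0.81), 0.0118 for ITGA6 (0.22) and 0.0206 for ITGA2 (0.22), all still called. ITGA7 (-0.25, adjusted p = 0.0782) and TNS1 (-0.30, adjusted p = 0.0717) were then not called, and PXN was (0.15, adjusted p = 0.0347), beside 2.30% of all tested genes called in that fit.

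Markers of other cell types were low, with exceptions. The 8 hepatocyte markers summed to 2.68 to 3.09 FPKM in the LX-2Vector libraries and 2.17 to 2.40 in the LX-2FAP libraries, nearly all from SERPINA1, with TTR at 0 counts. The 8 endothelial markers summed to 1.66 to 1.94 and 1.27 to 1.67 FPKM, with CLEC4G at 0 counts. Of the 5 tested, VWF was called lower, beside 2.73% of all tested genes. The 10 leukocyte and platelet markers, of interest for ITGA2B, ITGAX and ITGB2, summed to 5.18 to 6.56 and 6.08 to 7.87 FPKM, and GP9 was at 0 counts. Of the 4 tested, edgeR called none, and 2 had an unadjusted p under 0.05, beside 22.2% of all tested genes. Their median log2 fold change was 0.23, with 3 of 4 above 0. The 9 epithelial markers, of interest for ITGB4 and FERMT1, summed to 60.95 to 63.3 and 53.97 to 60.05 FPKM, nearly all from KRT8 and KRT18, while EPCAM had 24 and CDH1 6 counts in all. The part of these levels in the results was not tested.

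**Figure D5:**
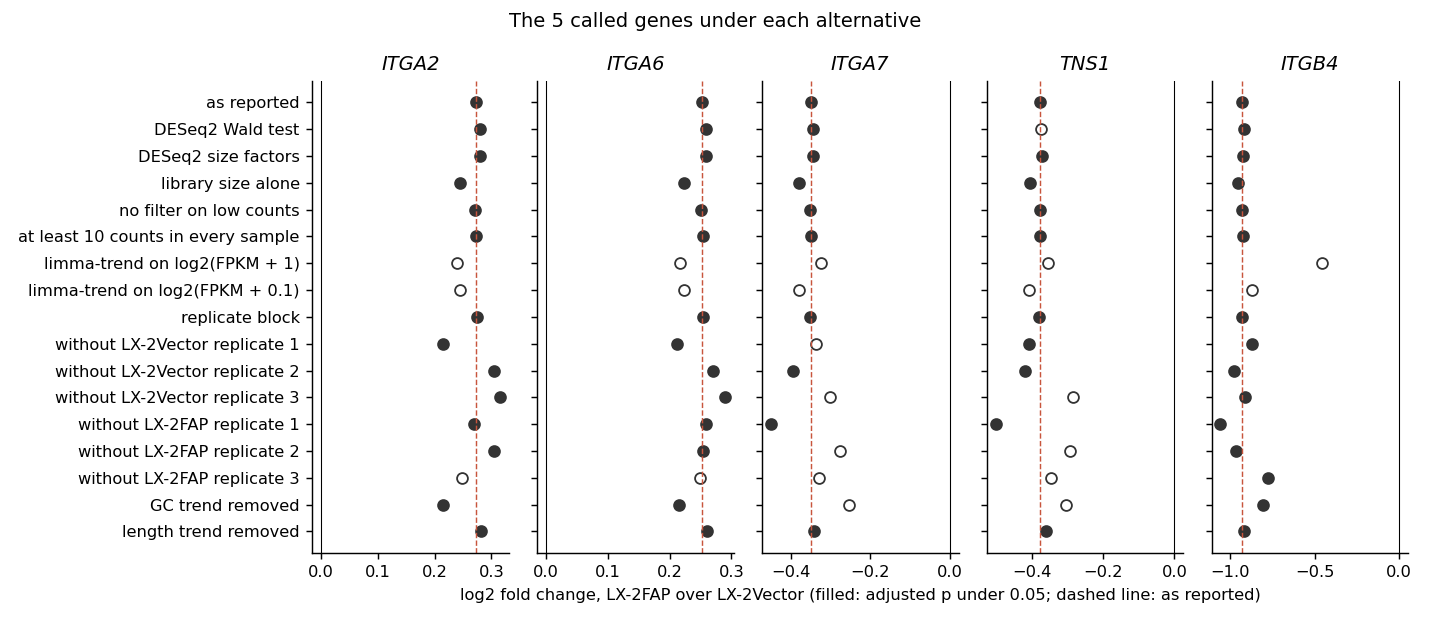
Log2 fold change of the 5 called genes as reported and under each of 16 alternatives, with filled points for an adjusted p under 0.05 and a dashed line at the value as reported. ITGB4 is called under 14, ITGA2 and ITGA6 under 13 and ITGA7 and TNS1 under 9 of the 16, and no gene changes sign.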

How the data were processed

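RNA was sequenced in 6 libraries of LX-2 cells, 3 of LX-2Vector and 3 of LX-2FAP, grouped by the sample titles. Per the labels, libraries were made from RNA depleted of ribosomal RNA, while the methods also name poly(A) isolation. The authors aligned reads with HISAT2 2.0.5, counted reads per gene with featureCounts 1.5.0-p3 and deposited the whole-number counts beside FPKM values, for which the authors scaled counts by gene length and depth. The submitters' processing notes list hg18, although GENCODE release 29 (GRCh38) held 58337 of the table's identifiers and supplied coordinates, G and C content and overlaps. Which annotation was used, and whether counting was stranded, is not given in the sources used here. Columns of the authors' own fold changes and p-values were not used.

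The groups were compared on counts by edgeR's quasi-likelihood test (version 4.0.16, TMM, default filter with a minimum count of 10 and a minimum total of 15, 2-sided, no covariate, Benjamini-Hochberg over 18275 genes). Genes with an adjusted p under 0.05 are the calls. Standard errors came from the test statistic, and 95% intervals, not adjusted for the number of genes, from the t distribution with 15.75 degrees of freedom. FPKM was used to compare levels between genes and normalized CPM to compare groups. Library totals of 17355700 to 26352060 counts set the precision. The script was tested on simulated data.

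The 35 genes and the lists of other integrins, adhesion components, ligands and markers were chosen with earlier results of these data known. All 35 genes are described. Of the other lists, the 5 genes with the largest change in each direction were named and the rest counted, and 1 ligand is not reported here. Alternatives were DESeq2 1.42.0, other scalings and filters, limma-trend (limma 3.58.1) on log2(FPKM + 1) and log2(FPKM + 0.1), a replicate block, leaving out each library, stricter thresholds and, added after seeing the data, a loess trend (span 0.5) on G and C content or on length removed.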

Additional observations from a re-analysis of the deposited data

How the results depend on the processing

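Of the 35 genes, 5 were called as reported. The number called was 0 under limma-trend with either pseudocount (0 higher and 0 lower). With pseudocounts of 1 and 0.1, 7 genes of the set had an unadjusted p under 0.05, beside 20.04% and 19.91% of all tested genes. The number called was 3 at an adjusted p under 0.01, a level for which no share over all genes is given here. It was 1 to 7 when 1 library was left out (0 to 2 higher, 1 to 5 lower). Over all genes, the calls then numbered 1949 (10.4%), 129 (0.688%) and 26 (0.138%) when LX-2FAP replicate 1, 2 or 3 was dropped. Across all genes, limma-trend called 2. Without the filter on low counts 5 genes were called lower, beside 3.90% of 41175 genes called in either direction. With the G and C trend removed 1 was called lower, beside 2.30% of all tested genes called in either direction. Other adhesion components called, 8 as reported, numbered 0 under limma-trend, 5 with the G and C trend removed (3 of the 8 and 2 others) and 0 to 9 with 1 library left out. Ligands called, 19 as reported, numbered 0 under limma-trend and 1 to 23 with 1 library left out. The share of ITGA3 and of ITGB1 moved to 35.2% and 91.5% by normalized CPM. Same-numbered libraries did not deviate together (correlations of -0.06, 0.07 and -0.02), and with the replicate block the same 5 genes were called, with 975 in all beside 967. The replicate block turned ITGB2 to -0.0026.

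No called gene changed sign. Signs turned in genes of which none was called, with log2 fold changes as reported from -0.096 (BCAR1) to 0.099 (ITGA10). Library size alone gave -0.0034 for ITGA5, -0.024 for ITGB2, -0.021 for TLN2 and -0.012 for FERMT2. Under limma-trend with pseudocounts of 1 and 0.1, ITGA5 was -0.0031 and -0.0032, ITGB2 -0.0036 and -0.017, TLN2 -0.013 and -0.015, and FERMT2 -0.011 and -0.011. With the G and C trend removed, ZYX was 0.051, ILK 0.00059, LIMS1 -0.021, FERMT2 -0.071, BCAR1 0.023 and FLNA 0.049. With 1 library left out, values ran from -0.16 to 0.061 for ITGA4, -0.053 to 0.33 for ITGA10, -0.10 to 0.021 for ITGAV, -0.14 to 0.16 for ITGB2, -0.038 to 0.064 for TLN2, -0.23 to 0.074 for ILK and -0.0077 to 0.097 for LIMS1. The cause was not tested.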
